A study of Mus musculus with 2 samples.

Results

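The nuclei described here were 400 droplet barcodes of an embryonic day 7.0 mouse data set, chosen by the highest combined level of the transcripts Elavl3, Phyhipl, E2f2, Dmc1, Ptchd1 and Wt1 relative to Nxph1, Kcnh8 and Slc35d3. Each level was the natural log of 1 plus the unique molecular identifiers (UMIs, the tags that count single RNA molecules) of a gene per 10000 RNA UMIs of the barcode, and the score was the mean over the first 6 genes minus the mean over the other 3. Scores were taken over the 11605 barcodes, of 15341 in all, with 3000 to 30000 RNA UMIs and at least 2000 counts in accessibility peaks. In the study, embryos staged at E7.0 had been pooled and dissociated, and nuclear RNA and open chromatin were read from the same nuclei with the 10x Genomics chemistry, giving 1 library per assay. All groups below are barcodes of that pool, with no treatment and no genotype contrast; every barcode carried the same library suffix, so the embryo of a nucleus is not known. The labels conflicted: title, age and protocol state E7.0 embryos, whereas the tissue, cell type and strain entries named the 8th section of the small intestine or the distal colon, goblet cells and RedMUC298trTg. In the 400 barcodes the goblet cell genes Muc2, Tff3, Clca1, Fcgbp, Atoh1 and Agr2 had 0 UMIs among 3575749, and Spdef and Zg16 had 1 each.

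The epiblast is the pluripotent epithelium of the early post-implantation embryo, held in that state by factors such as Pou5f1 and Nanog, and it gives rise to the primitive streak, the mesoderm, the definitive endoderm and the ectoderm. Its cells divide very fast. At the entry into DNA replication (S phase), cyclin E and its kinase inactivate the RB proteins, which frees activating E2F factors to induce replication genes such as Cdc6, Clspn and the Mcm helicase genes; genes for mitosis such as Kif11, Top2a and Cenpf peak later, in G2 and M phase. Of the 6 chosen genes, Elavl3 encodes an RNA-binding protein of neurons, Dmc1 the recombinase of meiosis, E2f2 an activating E2F, Ptchd1 a membrane protein with a patched domain, Wt1 a zinc-finger factor of the kidney and gonad, and Phyhipl a protein related to a phytanoyl-CoA hydroxylase partner. Nxph1 encodes a secreted ligand of neurexins, Kcnh8 a voltage-gated potassium channel and Slc35d3 a member of a nucleotide-sugar transporter family.

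Elavl3 and Dmc1 carried most of the score. Elavl3 was seen in 326 of the 400 barcodes (978 UMIs) and Dmc1 in 245 (466 UMIs), followed by Phyhipl in 183, E2f2 in 147, Ptchd1 in 117 and Wt1 in 35. No member had a UMI of all 6 genes: 183 members had UMIs of 2 of them, 157 of 3, 40 of 4, 9 of 5 and 11 of 1 gene alone. Among the 7203 other barcodes of the depth range with a Pou5f1 UMI, which served as the first comparison, 3365 (46.7%) had a UMI of none of the 6. Summed over the members, Elavl3 stood at 273.5 counts per 1000000 RNA UMIs (CPM) against 48.2 in that comparison, Dmc1 at 130 against 18.5, Phyhipl at 80.0 against 10.9, E2f2 at 56.8 against 9.81, Ptchd1 at 49.8 against 9.25 and Wt1 at 12.3 against 1.87. Nxph1 had 1 UMI in the members and 14.8 CPM in the comparison. These 9 genes chose the members, so their levels are a description and bear no test. The scores ran from 1.04 at the highest member through a median of 0.431, with 0.341 in the tenth member from the limit and 0.335 in the tenth barcode beyond it; nothing separated the members from the next barcodes.

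Because a UMI can come from free RNA in the droplet, the share of barcodes with a UMI was set beside an accessibility cluster of 1243 barcodes with the highest level of the visceral endoderm list, after every barcode had been thinned to 3000 UMIs. Elavl3 was seen in 51.75% of members (95% exact binomial interval 46.7 to 56.7%), in 23.6% (22.3 to 25.03%) of 3720 other barcodes of the accessibility clusters that hold most members (below) and in 0.805% (0.386 to 1.47%) of the endoderm-rich cluster. The same 3 shares were 31.5%, 7.28% and 0.644% for Dmc1, and 19.75%, 5.27% and 0.322% for Phyhipl. E2f2 differed from these: its share was 15.75% in members, 3.44% in the other barcodes and 3.38% (2.45 to 4.54%) in the endoderm-rich cluster. Members chosen for E2f2 had been taken out of those other barcodes; over all 4073 barcodes of the clusters, members included, the E2f2 share was 4.39%. Median totals before thinning were 8249.5 UMIs in members, 10460 in the other barcodes and 12136 in the endoderm-rich cluster, where the unthinned shares were 3.54% for Elavl3 and 9.41% for E2f2. All intervals here and below cover counting error only: barcodes of 1 library are not replicates, and no difference between the groups has a test over embryos.

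**Figure D1:**
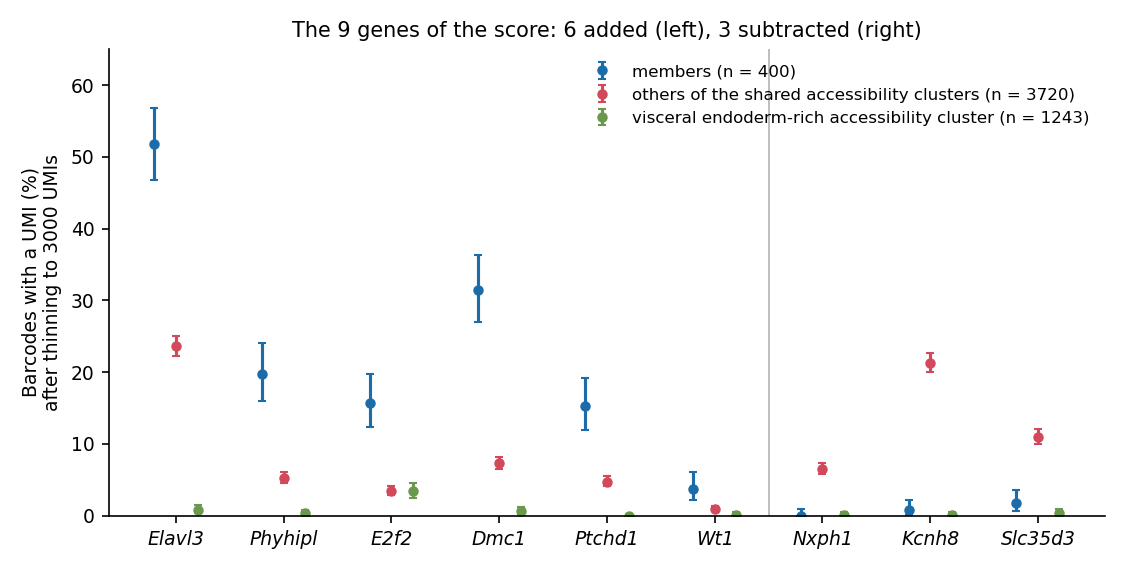
Percentage of barcodes with a UMI (vertical axis) for the 6 genes added to the score and the 3 subtracted from it, after thinning to 3000 UMIs, in the 400 members, 3720 other barcodes of the shared accessibility clusters and 1243 barcodes of the endoderm-rich cluster; bars are 95% exact binomial intervals. The members lie highest for the 6 genes and lowest or near the endoderm-rich cluster for the 3, as the choice of members fixed, and E2f2 has the highest share of the 9 genes in the endoderm-rich cluster (3.38%).

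The 6 genes were only loosely coupled. Among the 4073 barcodes of the shared clusters after thinning, Elavl3 and Dmc1 were seen together in 102 barcodes where the product of their shares gives 99.9, a ratio of 1.02, so these leading genes occurred together no more often than their separate frequencies give. Phyhipl with E2f2 (20 barcodes against 11.6, ratio 1.73) and E2f2 with Ptchd1 (16 against 10.1, ratio 1.58) were seen together more often. The 3 subtracted genes were coupled more closely, at 2.02 for Nxph1 with Slc35d3 and 1.94 for Nxph1 with Kcnh8. Elavl3 was at 1.34 with Phyhipl, 1.29 with E2f2, 1.19 with Ptchd1 and 1.37 with Wt1 (18 barcodes), and at 1.22 with Kcnh8 and 1.21 with Slc35d3, which the score sets against it.

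Promoter sequences of the chosen genes are shown because an E2F gene was among them and replication genes were high in the members, as described below. The letters searched were the E2F sites TTTCCCGC, TTTCGCGC, TTTGCCGC and TTTGGCGC and the shorter core TCCCGC, which lies within the first of them, on both strands, from 250 bases before to 50 bases after each start. The sequences and strands are from RefSeq with build GRCm38.p6, and 5 of the 6 genes (all but Wt1) had a window. Dmc1 and E2f2 hold an 8-letter site just after their RefSeq start, as does Clspn, while Cdc6 holds one upstream. For E2f2 the start given with the gene counts lies further downstream, at chr4:136172394, so its site is upstream of that start. The sites are given with flanking bases, the 8 letters in capitals, counted from 1 at the first base after the start: bases 2 to 9 in Dmc1 (chr15:79605093-79605109, minus strand), 40 to 47 in E2f2 (chr4:136172305-136172323, plus strand) and 22 to 29 in Clspn (chr4:126556993-126557016, plus strand, the site on the opposite strand).
Dmc1 site: aTTTGGCGCcaagcccg
E2f2 site: gcatatagTTTGGCGCtaa
Clspn site: gcgtctggGCGCGAAAgctcgaac

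Upstream of the start, Dmc1 (chr15:79605110-79605359, minus strand), Phyhipl (chr10:70599292-70599541, minus strand) and Ptchd1 (chrX:155623328-155623577, minus strand) hold the core, and Elavl3 (chr9:22052024-22052273, minus strand) holds neither. Cdc6 (chr11:98907901-98908150, plus strand), the S phase gene with the highest ratio within the shared clusters described below, is given for comparison, with its site 138 to 131 bases before the start. Capitals mark the core or, in Cdc6, the 8-letter site, on either strand.
Dmc1 upstream: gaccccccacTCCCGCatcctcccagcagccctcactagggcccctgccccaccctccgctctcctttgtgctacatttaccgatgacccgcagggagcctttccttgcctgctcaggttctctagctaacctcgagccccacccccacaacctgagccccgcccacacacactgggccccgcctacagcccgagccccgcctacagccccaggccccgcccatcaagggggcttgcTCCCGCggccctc
Phyhipl upstream: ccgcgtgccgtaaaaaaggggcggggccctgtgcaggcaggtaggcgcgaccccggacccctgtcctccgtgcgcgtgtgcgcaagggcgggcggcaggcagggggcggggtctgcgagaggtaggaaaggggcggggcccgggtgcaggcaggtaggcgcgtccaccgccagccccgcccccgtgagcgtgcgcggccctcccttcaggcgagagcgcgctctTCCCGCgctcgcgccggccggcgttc
Ptchd1 upstream: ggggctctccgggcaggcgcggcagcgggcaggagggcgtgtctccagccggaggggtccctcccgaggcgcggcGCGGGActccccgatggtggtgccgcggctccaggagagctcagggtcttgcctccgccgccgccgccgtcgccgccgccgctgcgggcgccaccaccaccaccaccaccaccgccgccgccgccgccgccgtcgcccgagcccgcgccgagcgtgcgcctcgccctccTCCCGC
Elavl3 upstream: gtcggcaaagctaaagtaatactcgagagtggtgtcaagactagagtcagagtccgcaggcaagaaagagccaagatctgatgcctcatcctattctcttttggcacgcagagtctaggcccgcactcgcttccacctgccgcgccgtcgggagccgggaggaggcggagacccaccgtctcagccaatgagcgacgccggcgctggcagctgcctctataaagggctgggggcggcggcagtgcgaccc
Cdc6 upstream: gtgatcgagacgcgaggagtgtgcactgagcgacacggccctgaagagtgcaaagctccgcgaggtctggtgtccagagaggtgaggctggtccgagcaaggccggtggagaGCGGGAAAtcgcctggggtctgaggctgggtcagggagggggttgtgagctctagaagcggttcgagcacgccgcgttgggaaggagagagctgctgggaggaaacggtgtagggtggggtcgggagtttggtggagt

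Across all 6513 genes tested within the shared clusters that had such a window, 4.84% held an 8-letter E2F site and 38.9% the core. A window was found for 79.5% of all tested genes, 77.0% of those higher and 75.7% of those lower in the members. With fewer than 80% covered, a comparison of these groups is void and no share is read for them. Of other genes described below as higher in the members, E2f7, Dtl and Mcm6 hold an 8-letter site in this window. E2f8, Chaf1b, Uhrf1, Ung, Tmem230, Bcl2l11 and Fbxl20 hold none. E2f1 is left out, because the letters of its window read as protein-coding sequence and not as a promoter. A match describes the letters and is not evidence that a factor binds there.

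The score divides by a barcode's total, so 1 UMI adds more to it in a barcode with few UMIs. The choice itself can thus favour low totals. The members were shallower than the barcodes they are compared with, and how far the choice accounts for this was not tested. Their totals ran from 3277 to 24515 RNA UMIs with a median of 8249.5, against 11994 in the Pou5f1 comparison, and their median peak count was 15912.5 against 20596. The main results below are therefore also given against barcodes matched on total counts. The ratios within single clusters, the single peaks, the shares of neighbours and the contrast with the lowest scores have no matched value beside them. A doublet caller marked 5 members (1.25%) and 7.64% of the Pou5f1 comparison.

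Most members had an epiblast profile. Their accessibility, which the score did not use, placed 353 of 400 (88.25%, 95% interval 84.7 to 91.2%) in 3 clusters, numbered 0, 1 and 4, with 81, 189 and 83 members. These 3 were singled out after the data were seen, as those where the members' share of a cluster (5.43%, 13.4% and 7.08%) was above their share of the depth range (3.45%). A share above the background was thus fixed by the choice of clusters, which the interval does not allow for. The 3 clusters hold 4073 of the 11605 barcodes of the depth range, 3069 of the 7203 in the Pou5f1 comparison and 368 of the 400 lowest scores. The 12 epiblast genes summed to 3525 CPM in the members (per barcode 274 to 7197, median 3509) and 2638 in the Pou5f1 comparison (91 to 9262, median 2519), a ratio of 1.34 (1.31 to 1.36), with wide overlap between barcodes. Pou5f1 was seen in 299 members (74.8%, 70.2 to 78.9%) and, after thinning, in 43.0% (38.1 to 48.0%) against 27.9% of all 11205 other barcodes of the depth range and 11.1% (9.41 to 13.0%) of the endoderm-rich cluster. Markers of embryonic mesoderm and visceral endoderm were lower than in the Pou5f1 comparison: the 12 genes of embryonic mesoderm summed to 609 against 1190 CPM (ratio 0.511, 0.490 to 0.533), and the 11 of visceral endoderm to 1138 against 3770 (0.302, 0.293 to 0.311). The 10 genes of decidua and immune cells were near 0 in both, at 7.55 against 6.66 CPM (1.13, 0.741 to 1.66). The label of epiblast held for most of the 400, but not for all. The 47 members outside the 3 clusters had 2152 CPM of the epiblast list, 1127 of the primitive streak list and 1464 of the embryonic mesoderm list, where the 353 had 3723, 534 and 485. The 353 were not alike either. Members in clusters 0, 1 and 4 had 4013, 3991 and 2924 CPM of the epiblast list and 580, 321 and 908 of the streak list. Over all its barcodes cluster 4 had 2780 CPM of the epiblast list. Cluster 5, with 1395 CPM of the extraembryonic ectoderm list, had 2516, so this list alone separates them little. Pou5f1 was at 192 CPM in cluster 4 and 46.9 in cluster 5.

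Against the other barcodes with a Pou5f1 UMI, 330 of 8822 genes with at least 50 expected UMIs in the members were 1.5-fold or more higher (3.74%) and 765 were lower (8.67%). Against 2000 barcodes of that comparison matched on total counts, 228 of 8727 genes were higher and 513 lower. The 9 genes of the score were left out, and the median ratio over all genes was 0.996. The highest ratios were in Skida1 (52.3 against 19.1 CPM, 2.74, interval 2.34 to 3.19) and Bcl2l11, the pro-apoptotic BH3 protein BIM (141 against 53.9, 2.62, 2.38 to 2.87). Next came the chemokine gene Cxcl12 (2.50), Fbxl20 (2.44), the prohormone convertase gene Pcsk2 (2.42), Bicdl1 (2.38), 9030624G23Rik and Prelid3a (2.36 each), the synaptotagmin gene Syt9 (2.34), the proto-oncogene Myb (2.32), the cation channel gene Trpc1 (2.31) and Tmem230 (2.30). All 12 ratios were smaller within the shared clusters, compared below: Skida1 was at 1.51 (1.34 against barcodes matched on total counts), Cxcl12 at 1.35, Pcsk2 at 1.30, Myb at 1.33 and Syt9 at 1.45, and the last 4 no longer passed 1.5-fold. Tmem230 (2.18) and 9030624G23Rik (2.24) moved little. The lowest ratios were in Gm13270 (0.07), Triml2 (0.08), Slc25a21 (0.08), Sfmbt2 (0.10), 9030622O22Rik (0.10), Cubn (0.11), Gm14858 (0.11), Arid5b (0.11), Dpp4 (0.13), Trpm6 (0.13), Lama1 (0.13) and Myo5b (0.13). Several of these are known from extraembryonic tissues; Cubn, an endocytic receptor of the visceral endoderm, stood at 114 CPM in the members and 1047 in the comparison. Within the shared clusters the ratio was 1.01 (0.89 to 1.13) for Cubn and 1.06 (0.82 to 1.35) for Sfmbt2, whereas Arid5b was lower there too, at 0.50 (0.34 to 0.71).

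A closer comparison was with the 3720 other barcodes of the same 3 accessibility clusters. There 87 of 8195 genes were 1.5-fold or more higher in the 353 members (1.06%) and 210 were lower (2.56%), with a median ratio over all genes of 1.02. Against 1765 barcodes of these clusters matched on total counts (median 8517 UMIs against 8250 in the members), 43 genes of 8200 were higher and 112 lower. Of the 87 higher genes 30 (34.5%, and 69.8% of the 43) also passed against the matched barcodes, as did 104 of the 210 lower genes (49.5%, and 92.9% of the 112), and all 297 lay on the same side of 1. The members are the same and the matched barcodes are part of the 3720, so this agreement is not a separate check. The 12 highest were 9030624G23Rik (65.9 against 29.4 CPM, 2.24, 1.93 to 2.60), Tmem230 (56.3 against 25.9, 2.18, 1.85 to 2.56), Gm4425 (2.16), Cdc6 (2.12), Dnajb14 (1.93), Gm49692 (1.93), Plekhm2 (1.91), Fbxl20 (1.90), 5730507C01Rik (1.89), Clspn (1.88), Rb1 (1.85) and Bcl2l11 (1.83). Dnajb14 encodes a co-chaperone. It and Msh4, a meiotic gene of the MutS homologue family, were both above 1. Msh4 was below the expected-count minimum, with 45 UMIs (14.4 against 5.67 CPM, 2.54, 1.80 to 3.50). Dnajb14 was seen in 24.75% of all members and 22.9% of the other barcodes of the clusters (11.75 and 8.71% after thinning), so its ratio came more from UMIs per barcode than from the share of barcodes. Against the matched barcodes these ratios were 1.78 for 9030624G23Rik, 1.84 for Tmem230, 1.6 for Dnajb14, 1.86 for Msh4 and 1.70 for Bcl2l11. Strand was not given in the sources used here for the gene counting. How far reads of the unnamed genes were kept apart from those of overlapping neighbours is thus not known here.

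Genes of S phase were higher as a group. All 29 genes of the S phase list had a ratio above 1 in the members of the shared clusters, and 6 passed 1.5-fold, against 1.06% of all genes tested there. Per barcode the list ran from 2374 to 10747 CPM with a median of 6425 in these members, and its sum was 6169 against 4681 in the other barcodes, a ratio of 1.32 (1.30 to 1.34). Against the Pou5f1 comparison the ratio was 1.42 (1.4 to 1.44), with 29 of 29 genes above 1 and 9 past 1.5-fold, against 3.74% of all genes. Against the matched barcodes it was 1.21 (1.19 to 1.23), with 28 of 29 above 1 and 2 past 1.5-fold, where 43 of 8200 genes were.

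Among the S phase genes the highest ratio was in Cdc6. This gene, whose product loads the helicase at origins, had 434 UMIs in the 353 members, or 139 against 65.5 CPM (2.12, 1.91 to 2.35; 1.70 against the matched barcodes). Clspn, a checkpoint mediator at the fork, stood at 213 against 114 (1.88, 1.73 to 2.04; matched 1.61), and cyclin E2, Ccne2, at 157 against 86.3 (1.82, 1.65 to 2.0; matched 1.49). Uhrf1, which guides maintenance of DNA methylation (274 against 164, 1.67), the histone chaperone gene Chaf1b (104 against 63.2, 1.65) and the helicase cofactor gene Cdc45 (63.7 against 39.7, 1.6) completed the 6 past 1.5-fold. The 6 Mcm helicase genes were less raised, from 1.12 in Mcm7 and 1.13 in Mcm2 to 1.46 (1.36 to 1.56) in Mcm6. Licensing factor Cdt1 was at 1.44 (1.34 to 1.55) and histone mRNA binder Slbp at 1.43 (1.35 to 1.52). The sliding clamp gene Pcna was at 1.17 (1.11 to 1.24) and Pola1, a polymerase subunit, at 1.11 (1.06 to 1.16), and the helicase gene Blm at 1.02 (0.93 to 1.11) did not differ beyond its interval.

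Genes of G2 and M phase were lower. The list of 23 summed to 2853 against 3751 CPM in the shared clusters, a ratio of 0.761 (0.744 to 0.777), with 22 of 23 genes below 1 and 5 past 1.5-fold, against 2.56% of all genes tested there. Against the matched barcodes it was 0.830 (0.812 to 0.849) with 22 below 1 and 1 past 1.5-fold, where 112 of 8200 genes were, so that last count is near the background. Per barcode it ran from 937 to 7049 with a median of 2656 in these members. The spindle kinesin gene Kif11 was lowest, at 114 against 219 CPM (0.52, 0.47 to 0.58; matched 0.58). The spindle genes Hmmr and Tpx2 were both at 0.66, topoisomerase gene Top2a at 0.69 (0.66 to 0.73), the mitotic kinase gene Cdk1 at 0.72 (0.65 to 0.79) and the kinetochore gene Cenpf at 0.75 (0.71 to 0.80). Cyclin B1, Ccnb1, was at 0.79 (0.72 to 0.88) and the proliferation marker Mki67 at 0.90 (0.83 to 0.97). Cdc20, an activator of the anaphase-promoting complex, was the single gene above 1, at 1.08 (0.99 to 1.19).

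**Figure D2:**
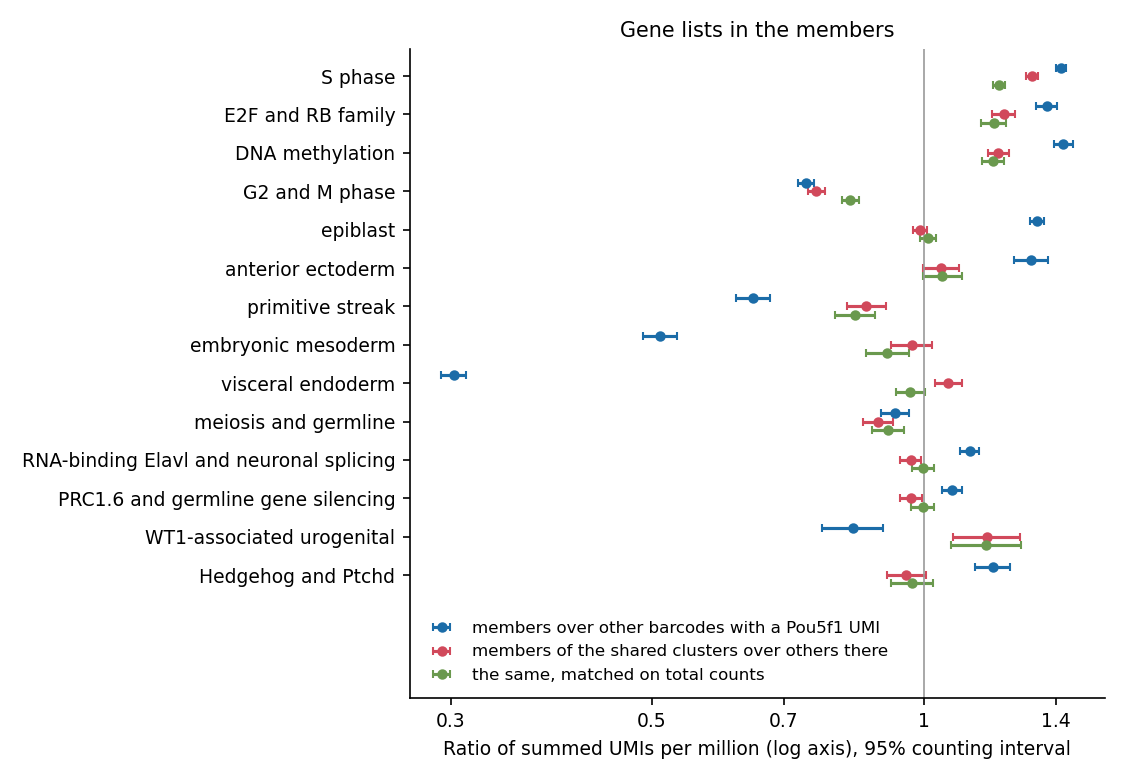
Ratio of summed CPM (horizontal log axis, 95% counting intervals) of 14 gene lists in the members over other barcodes with a Pou5f1 UMI, in members of the shared clusters over other barcodes there, and over barcodes there matched on total counts. The S phase list lies above 1 (1.42, 1.32 and 1.21) and the G2 and M phase list below 1 (0.741, 0.761 and 0.830) in all 3, while the epiblast list moves from 1.34 to 0.991 and 1.01.

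To put both lists on one scale, the replication share of a barcode was taken as its S phase UMIs as a percentage of its S phase plus G2 and M phase UMIs. Its median was 70.5% in the 353 members, with 90% of them between 49.1 and 82.3%. It was 55.0% (36.5 to 77.8%) in the other barcodes of the clusters, 61.3% in the matched barcodes, 53.1% in the Pou5f1 comparison and 51.3% in the 400 barcodes with the lowest scores. The distributions overlapped, but the members' lower quartile, 63.8%, was above the median of each of these groups. The pattern was smaller in cluster 0, where the S phase ratio was 1.12 (1.08 to 1.15), than in clusters 1 (1.39, 1.36 to 1.42) and 4 (1.38, 1.34 to 1.42). The G2 and M phase ratio was 0.854 in cluster 0, 0.753 in cluster 1 and 0.678 in cluster 4.

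**Figure D3:**
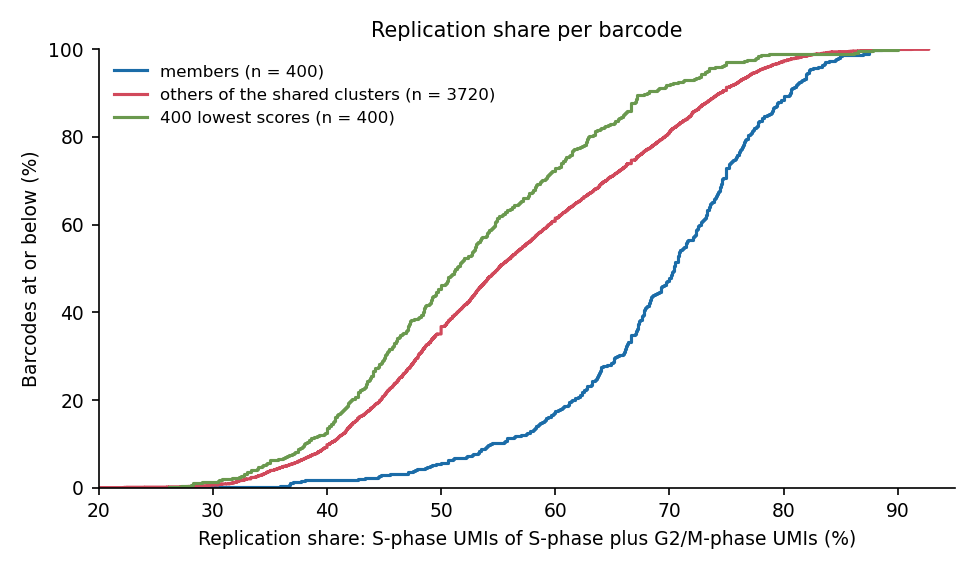
Percentage of barcodes (vertical axis) at or below each replication share (horizontal axis, S phase UMIs as a percentage of S phase plus G2 and M phase UMIs). The curve of the members (median 70.4% over all 400) lies to the right of the other barcodes of the shared clusters (55.0%) and of the 400 lowest scores (51.3%), with overlap across most of the range.

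The E2F and RB family, counted without E2f2, was higher as a group. Leaving E2f2 out does not make the list independent of the score, because the members were chosen in part for E2f2. Of 13 genes tested in the shared clusters 12 were above 1 and 4 passed 1.5-fold, where 1.06% of all genes did. Against the matched barcodes 1 of the 13 passed, where 43 of 8200 genes did. The list summed to 1554 against 1268 CPM (1.23, 1.19 to 1.26; matched 1.20, 1.16 to 1.23). The activator E2f1 stood at 47.7 against 26.4 CPM (1.81, 1.51 to 2.15), the pocket protein gene Rb1 at 73.6 against 39.8 (1.85, 1.61 to 2.13), and the atypical repressors E2f7 at 184 against 106 (1.74, 1.59 to 1.90) and E2f8 at 61.4 against 33.9 (1.81, 1.55 to 2.11). Activator, inhibitor and repressors were thus all higher. E2f3 (1.12, 1.04 to 1.20) and Tfdp2, a dimer partner (1.24, 1.16 to 1.33), were less so, and E2f4 (1.08), E2f5 (1.02), Rbl1 (1.07) and Tfdp1 (0.98) had intervals that include 1. Against the matched barcodes E2f1 was at 1.75, Rb1 at 1.49, E2f8 at 1.45 and E2f7 at 1.42.

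The following genes outside the lists were picked after their values were seen. They do not have the highest ratios, and other higher genes are not named, so they do not stand for all higher genes. Within the shared clusters Rpa1, a single-strand DNA binder, and Ung, a uracil glycosylase, were both at 1.79, the ubiquitin ligase adaptor gene Dtl at 1.71, Wdr76 at 1.70, Cdkn1a, the cell cycle inhibitor p21, at 1.63, Mybl2 at 1.61, Mcm10 at 1.6 and Atad2 at 1.55. The DNA methylation list was at 1.21 (1.18 to 1.24), with 4 of 7 tested genes above 1, 3 below and 1, Uhrf1, past 1.5-fold higher, against 1.06% of all genes. Hells, a chromatin remodeler, was its most abundant gene, at 858 against 632 CPM (1.36, 1.30 to 1.41; matched 1.32), and without it the list was at 1.11 (1.07 to 1.15). The maintenance enzyme gene Dnmt1 was at 1.14 (1.04 to 1.25) and the demethylation gene Tet1 at 0.87 (0.81 to 0.93). Dnmt3b, a de novo enzyme gene counted in the epiblast list, was at 0.96 (0.93 to 0.99).

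Lists that go with the functions of the other chosen genes lay nearer to 1 than the S phase list. The meiosis and germline list without Dmc1 summed to 881 against 989 CPM in the shared clusters (0.890, 0.856 to 0.926), with 3 of 6 tested genes above 1. None of the 6 passed 1.5-fold, which at 1.06% higher and 2.56% lower over all genes is near the background. The summed value rested on its most abundant gene: without it the other 41 genes were at 531 against 498 CPM (1.07, 1.01 to 1.12), on the other side of 1. Psmc3ip, a meiotic recombination cofactor, was at 1.4 (1.12 to 1.73). The list of Elavl and neuronal splicing genes was at 0.968 (0.943 to 0.994), with Nova1 higher (103 against 66.7, 1.54, 1.37 to 1.73; matched 1.34), Elavl2 at 1.28 (1.19 to 1.38), the widely expressed Elavl1 at 1.04 (0.96 to 1.13) and Rbfox1, a gene of 1528 kb, at 0.59 (0.53 to 0.65). Of the 14 urogenital genes that go with Wt1, 2 were tested, both above 1, and the list was higher, at 1.17 (1.08 to 1.28) on 190 against 162 CPM. The Hedgehog list beside Ptchd1 was at 0.957 (0.910 to 1.01).

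Lists of stage and lineage lay nearer to 1 within the shared clusters than the S phase list did, apart from differences between clusters. The epiblast list was at 0.991 (0.972 to 1.01), with Sox2 at 1.23 (1.07 to 1.4), Nanog at 1.27 (1.09 to 1.47), Pou5f1 at 1.04 (0.96 to 1.13) and Dnmt3b at 0.96. The anterior ectoderm list was at 1.05 (0.998 to 1.10), made up of 0.798 (0.721 to 0.882) in cluster 0, 1.08 (1.01 to 1.14) in cluster 1 and 1.19 (1.08 to 1.31) in cluster 4. Pooled over the clusters, embryonic mesoderm was at 0.970 (0.920 to 1.02; matched 0.912, 0.863 to 0.963), visceral endoderm at 1.06 (1.03 to 1.10; on the other side of 1 when matched, 0.967, 0.932 to 1.003), naive pluripotency at 0.989 (0.885 to 1.10) and primordial germ cell genes at 0.953 (0.80 to 1.13). The primitive streak list was lower, at 534 against 618 CPM (0.864, 0.822 to 0.908; matched 0.840). Brachyury, T, which marks the streak, had 66 UMIs, or 21.1 against 40.6 CPM (0.52, 0.40 to 0.67), and Sp5 was at 0.66 (0.49 to 0.86), Mixl1 at 0.68 (0.51 to 0.88) and Fgf8 at 0.77 (0.67 to 0.88), while Eomes (0.99) and Wnt3 (0.92) had intervals that include 1. This did not hold within each cluster: the streak list was at 1.17 (1.06 to 1.29) in cluster 0, 1.21 (1.10 to 1.32) in cluster 1 and 0.797 (0.739 to 0.859) in cluster 4, where the list was most abundant.

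The chosen genes were then read along the replication share in all 4073 barcodes of the shared clusters, members or not. The replication share uses none of the 9 genes of the score. In 4 bins of 1018 or 1019 barcodes, with median shares of 41.8, 51.6, 62.7 and 74.2%, members made up 1.28, 2.46, 11.0 and 19.9%. From the lowest to the highest bin Dmc1 went from 14.7 to 63.8 CPM, a ratio of 4.34 (3.67 to 5.16), and E2f2 from 8.07 to 33.9, a ratio of 4.20 (3.34 to 5.31). These were the steepest of the 9 genes. Wt1 (2.48, 1.55 to 4.05, on 29 and 53 UMIs), Phyhipl (2.42, 2.01 to 2.92), Elavl3 (1.99, 1.83 to 2.15) and Ptchd1 (1.76, 1.45 to 2.13) had smaller ratios. The subtracted genes went the other way or stayed level, with Nxph1 at 0.393 (0.325 to 0.473), Kcnh8 at 0.695 (0.633 to 0.762) and Slc35d3 at 0.894 (0.774 to 1.03). These values include the members, which were picked for the same genes. In the barcodes that are not members the changes were smaller: Dmc1 went from 13.98 to 46.97 CPM, E2f2 from 7.77 to 27.5, Wt1 from 2.21 to 3.49 and Slc35d3 from 39.9 to 41.7. Leaving the members out took 203 barcodes from the highest bin and 13 from the lowest, all picked for these genes. The smaller changes are thus in part fixed by the choice, and neither set of values is free of it.

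Totals moved with these bins, from a median of 11738 UMIs in the lowest to 8594 in the highest. The barcodes were then split at the median total of 10259 UMIs, and 4 new bins of replication share were formed on each side. Below the median the ratio of highest to lowest bin was 4.28 for Dmc1, 9.56 (5.69 to 17.2, on 16 and 142 UMIs) for E2f2 and 2.13 for Elavl3. At or above it the ratios were 3.99 for Dmc1, 2.93 for E2f2 and 1.64 for Elavl3, so the order of high over low held on both sides of the median. Read the other way, barcodes of the clusters with an E2f2 UMI after thinning had 1.20 times (1.18 to 1.23) the S phase level of barcodes without, and those with Dmc1 1.15 (1.13 to 1.16). The ratio was 1.06 (1.05 to 1.07) for Elavl3, 1.08 for Phyhipl and Ptchd1 and 0.967 (0.928 to 1.01) for Wt1. Barcodes with Elavl3 differed more in the primitive streak list, at 0.567 (0.549 to 0.586), as did those with Ptchd1 (0.592), Kcnh8 (0.438) and Nxph1 (0.388), whereas those with Dmc1 did not (1.0, 0.960 to 1.04).

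**Figure D4:**
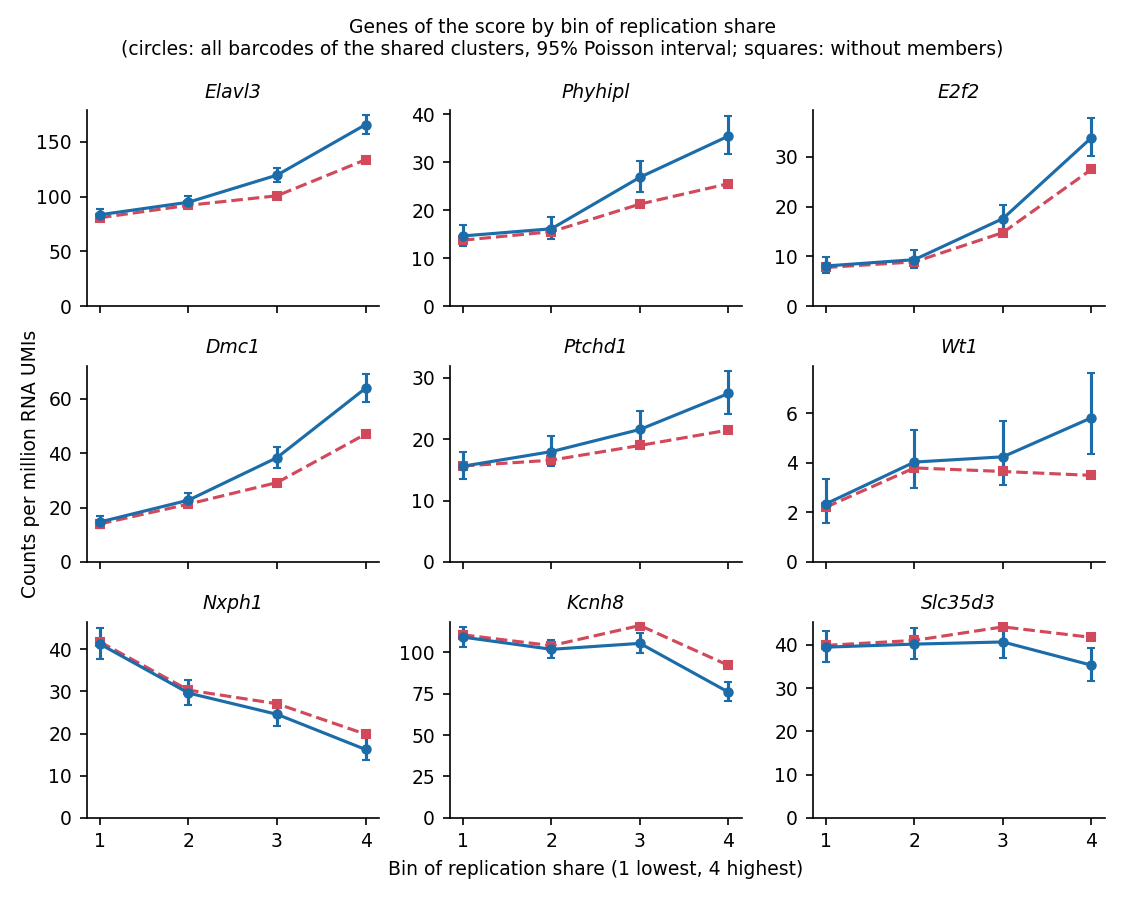
CPM of the 9 genes of the score (vertical axes, each from 0) by bin of replication share in the shared clusters, with circles for all 4073 barcodes (95% Poisson intervals) and squares for those that are not members. Dmc1 goes from 14.7 to 63.8 and E2f2 from 8.07 to 33.9, and Nxph1 falls away from 41.3 to 16.2.

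Within the shared clusters the genes lower in the members were long. The 208 lower genes with a known length had a median of 319 kb, against 30.3 kb over all 8106 tested genes with one (98.9% of those tested). Among 213 genes of 400 kb or more the median ratio was 0.70, with 85 (39.9%) past 1.5-fold lower and 0 higher, and their summed CPM were at 0.716 of the other barcodes. Among 2981 genes under 20 kb it was 1.02, with 25 lower and 20 higher. Against the matched barcodes the median of 206 genes of 400 kb or more was 0.766, with 43 (20.9%) lower and 0 higher. Against the Pou5f1 comparison the pattern was weaker: its 761 lower genes with a known length had a median of 59.7 kb against 29.8 kb over all tested, and of 228 genes of 400 kb or more 75 were lower and 8 higher. Genes of 200 kb or more gave 7.78% of the UMIs of these members and 9.69% of those of the other barcodes. The replication share moved with it: over the bins above, the same genes gave 10.3, 10.2, 9.27 and 7.94% of UMIs. The score itself adds genes of 23.8 to 54.4 kb and subtracts Nxph1 (301 kb), Kcnh8 (376 kb) and Slc35d3 (8.72 kb). With members chosen by the 6 genes alone, the summed genes of 400 kb or more were at 0.787. Whether the choice of members, total counts, cell cycle or another property of the nuclei accounts for the length pattern was not tested.

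**Figure D5:**
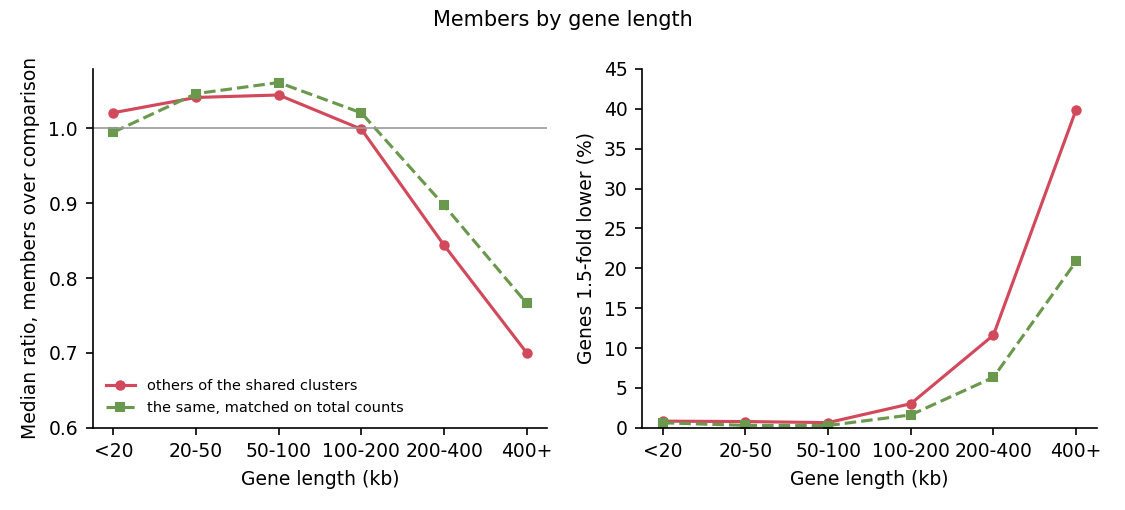
Median ratio of members over comparison (left) and percentage of genes at least 1.5-fold lower (right) by gene length in kb, against the other barcodes of the shared clusters and against those matched on total counts. The median is 1.02 under 20 kb and 0.70 at 400 kb or more, and 0.995 and 0.766 against the matched barcodes.

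The 12 lowest genes within the shared clusters were Adamtsl1 (915 kb, 5.76 against 18.7 CPM, 0.31, 0.18 to 0.49), the semaphorin receptor gene Plxna2 (197 kb, 0.37), the synaptotagmin gene Syt1 (513 kb, 26.2 against 69.3, 0.38, 0.30 to 0.47), Pif1 (0.41), the potassium channel gene Kcnd2 (514 kb, 0.43), Gm14582 (0.43), the glutamate receptor gene Grm8 (860 kb, 0.43), Depdc1b (0.44), Nav3 (774 kb, 0.44), Atg10 (0.45), Zfp804b (0.45) and Snx29 (0.46). Pif1, a helicase gene, spans 8.82 kb and Depdc1b 73.6 kb, so not all of them were among the longest genes.

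Within the shared clusters the summed accessibility at the chosen genes lay near that of the other barcodes, while against the Pou5f1 comparison some of it was higher. These clusters were formed from the same peak counts, so their barcodes were grouped for like accessibility. Ratios near 1 there are in part set by that grouping and do not show that accessibility was unchanged. Peaks within 50 kb of the 6 genes summed to 1.05 times (1.01 to 1.09) the level of the Pou5f1 comparison and 0.984 times (0.946 to 1.02) that of the other barcodes in the shared clusters, on 2771 estimated fragments in the members (the peak count divided by 2 and rounded up). The promoter peaks of the 6 genes together were at 1.15 (1.06 to 1.24) against the Pou5f1 comparison and 0.984 (0.905 to 1.07) within the clusters. The Elavl3 promoter had 108 fragments in the 400 members, 1.41 times (1.15 to 1.71) the Pou5f1 comparison, and 1.02 times (0.822 to 1.26) the other barcodes of the clusters. Promoters of subtracted genes were also higher than in the Pou5f1 comparison, at 1.41 (1.13 to 1.73) for Nxph1 and 1.52 (1.12 to 2.02) for Kcnh8. With Nxph1 and Kcnh8 raised, the rise was not particular to the chosen genes. The Slc35d3 promoter was at 1.02 (0.757 to 1.34) there. Not all chosen genes shared the rise. Against the Pou5f1 comparison the promoters of E2f2 (0.830, 0.590 to 1.14), Dmc1 (0.904, 0.717 to 1.13) and Wt1 (1.13, 0.954 to 1.32) had intervals that include 1. Within the clusters the promoters of Phyhipl (1.13, 0.987 to 1.28; 1.23, 1.09 to 1.38 against the Pou5f1 comparison), E2f2 (0.865, 0.592 to 1.22) and Wt1 (0.923, 0.775 to 1.09) had intervals that include 1. The Dmc1 promoter was at 0.762 (0.594 to 0.963) on 74 fragments. Ptchd1 had no promoter peak, and its 1 nearby peak was at 1.63 (0.907 to 2.75) on 16 fragments within the clusters and at 2.26 (1.35 to 3.57) on 20 against the Pou5f1 comparison. Promoters of the S phase list were at 0.963 (0.931 to 0.996), those of the G2 and M phase list at 0.950 (0.910 to 0.991) and those of the 87 higher genes at 0.986 (0.967 to 1.01). The last value sums 201 peaks of 86 genes, as a promoter here spans the first to the last start of a gene. Against the Pou5f1 comparison the S phase promoters were at 0.924 (0.896 to 0.952) and the G2 and M phase promoters at 0.907 (0.872 to 0.942).

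Single peaks were compared in the same way. Against the Pou5f1 comparison 67 of 34391 peaks with at least 20 expected fragments were 2-fold higher (0.195%) and 931 were lower (2.71%), led by peaks at the promoters of Arpp21 (chr9:112207529-112208434, 57 fragments, 2.74, 2.04 to 3.61) and Gm13449 (2.38), a distal peak nearest Gm49636 (2.35) and the Gulp1 promoter (2.35) among the higher. The lowest, near Gm29880, Gm12088, Mbl2, 2310008N11Rik, Gm44778 and Trap1a, had 1 fragment each in the members. Within the shared clusters 2 of 32154 peaks were 2-fold higher (0.00622%), 35.2 kb from Vmn2r73 (42 fragments, 2.11, 1.49 to 2.93) and 52.9 kb from Fam114a2 (40 fragments, 2.05, 1.43 to 2.87), and 65 were lower (0.202%). Peaks of so few fragments limit what a 2-fold difference can show, and the counts at these thresholds are small beside the number tested. The low counts within the shared clusters are also in part set by the grouping of barcodes on accessibility.

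The members lay among other members more often than their share of all barcodes gives. Of the 15 nearest neighbours of a member, 18.4% were members in RNA with the 9 genes left out and 15.7% in accessibility, against 3.45% of the depth range. Within the shared clusters the shares were 20.1 and 17.5% against 8.67%. In each assay 89 of the 400 members had no member among their 15 neighbours. These shares were not matched on total counts, so whether the members' low totals bring them together was not tested. The 400 lowest scores had higher shares of their own kind, at 24.1% in RNA and 20.5% in accessibility. By RNA clustering, 186 members lay in cluster 8, where they made up 25.8%, and 45 in cluster 13 (24.9%); these clusters had 6725 and 6835 CPM of the S phase list and median totals of 8185.5 and 6828 UMIs. Over the 7502 barcodes with a Pou5f1 UMI, members included, the genes with the highest Spearman coefficient with the score were Sall3 (0.190), Eomes (0.187), Rbms1 (0.185), Adamts9 (0.179), Fst (0.176), Wls (0.173), Meis2 (0.165) and Pcdh7 (0.162). All are weak values across barcodes of 1 library, and a place among these 8 does not by itself mark a gene high in the members. Pcdh7 was at 0.32 of the Pou5f1 comparison and 0.60 within the shared clusters, Meis2 at 0.70 and 0.75, and Adamts9 at 0.86 and 0.97. Sall3 was higher, at 1.51 and 1.23.

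Set against the 400 lowest scores, chosen by high Nxph1, Kcnh8 and Slc35d3, the members differed in genes of the primitive streak as well as of the cell cycle. There 422 of 8634 genes were 1.5-fold higher (4.89%) and 473 lower (5.48%), and 295 of 36975 peaks were 2-fold higher (0.798%) and 257 lower (0.695%). Of the lowest scores 197, 166 and 5 lay in clusters 0, 1 and 4, and 331 had a Pou5f1 UMI; 17 lay in cluster 11 and 8 in cluster 9, where the doublet caller marked 36.4 and 66.7% of barcodes. The primitive streak list was at 609 against 242 CPM (2.52, 2.34 to 2.71), with 9 of 9 tested genes past 1.5-fold higher, among them T (5.31), Wnt3 (4.95), Eomes (3.69) and Fgf8 (2.86), and Nanog was at 4.63. Embryonic mesoderm was higher too, at 1.88 (1.76 to 2.0), with 5 of 7 tested genes past 1.5-fold. The extraembryonic ectoderm list was at 2.22, but its 1 tested gene was Eomes, which the streak list also holds. The ectoplacental cone list was at 2.45 with 1 tested gene, at 3.25. The extraembryonic mesoderm list was at 1.63 with 0 tested genes. This contrast includes the 47 members outside the shared clusters, whose streak and mesoderm levels were given above. Within those clusters the groups were also spread differently: cluster 4, the richest of the 3 in the streak list, held 83 members (20.75%) and 5 of the lowest scores (1.25%). The S phase list was at 1.49 (1.46 to 1.52) and the epiblast list at 0.813 (0.795 to 0.831). Nxph1, Kcnh8 and Slc35d3 chose both ends of the score, so this contrast is a description of its extremes.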

How the data were processed

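Nuclear RNA and chromatin accessibility of pooled E7.0 embryos came as 1 matrix of raw counts, per the file headers written by cellranger-arc; the submitters' processing notes name Cell Ranger ARC 2.0.0 and mm10. The deposited counts were UMIs per gene and, per peak, mostly even numbers, so fragments were estimated as the count divided by 2 and rounded up. The sources used here do not name the peak caller, gene annotation or barcode filters. The members and lists were chosen with earlier results of these data known.

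UMIs were summed per group and divided by the group's total, times 1000000 (CPM). Genes counted with at least 50 expected UMIs in the members and peaks with at least 20 expected fragments, both from the pooled rate. Ratios carry exact 95% conditional binomial intervals and shares Clopper-Pearson intervals. With 1 library per assay no p-value was computed. The fold calls and ratio intervals were tested on simulated Poisson counts, which lack the spread between barcodes. The other steps were not simulated.

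RNA (2000 variable genes without the 9 of the score, 30 components) and accessibility (TF-IDF, singular vectors 2 to 30) were clustered with leidenalg 0.10.2 at resolution 1 in scanpy 1.11.5. Scrublet marked doublets, which were kept. Matched comparisons took the 5 nearest barcodes per member in RNA and peak totals, without reuse. Promoter peaks lay from 1000 bp before to 100 bp after the span of a gene's first to last start. Where strand was unknown, 1000 bp were taken on either side. Peaks between distant starts of a gene are thus included. Genes named were the 12 with the highest and the 12 with the lowest ratio, present in 10 or more barcodes, the list genes past 1.5-fold, up to 4 abundant genes per list, and the 6 peaks at either end; others are said to be chosen after their values were seen. The comparisons within the shared clusters and with the lowest scores were added after seeing the data, as were their alternatives.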

Additional observations from a re-analysis of the deposited data

How the results depend on the processing

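The embryo of a nucleus is unknown, every value comes from 1 library, and intervals cover counting error only. No paired analysis was possible because both samples come from 1 pool and no 2 groups of samples were compared. The choice of members is soft: a score from thinned barcodes shared 186 (46.5%) of the 400, and one of the 6 genes alone 206 (51.5%). Where values moved, the cause was not tested.

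Genes past 1.5-fold in either direction against the Pou5f1 comparison numbered 1095. They were 535 against barcodes with 3 or more Pou5f1 UMIs, 297 within the shared clusters, 155 when matched there, 382 at a fold of 2 and 6377 with no filter. The 297 became 108 with the thinned score, 155 when matched and 825 against the lowest scores there. Peaks past 2-fold numbered 998: 126 with 200 members, 3925 with 800, 1680 with the 6 genes alone, 146 against 3 or more Pou5f1 UMIs, 2218 against all others and 554 for members with a Pou5f1 UMI. They were 654 when matched, 67 within the clusters, 68 when matched there, 552 against the lowest scores, 75 at 40 expected fragments and 4869 from raw counts.

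Accessibility near the 6 genes (1.05) was 0.984 within the clusters and 0.979 when matched there, on the other side of 1, 1.01 against the lowest scores and 1.17 for peaks within 2000 bp of a start. The epiblast list (1.34) was 1.37 and 1.23 with 200 and 800 members, 1.51 with the 6 genes alone and against all others, 1.05 against 3 or more Pou5f1 UMIs, 1.38 for members with a Pou5f1 UMI and 1.29 when matched. It was 1.01 when matched within the clusters, and on the other side of 1 within the clusters (0.991) and against the lowest scores (0.813). The meiosis list (0.931) was 1.04 with the 6 genes alone, on the other side of 1, 0.984 with the thinned score, 0.890 within the clusters and 0.843 against the lowest scores. Within the clusters and without its most abundant gene, the meiosis list (0.890) was 1.07, on the other side of 1, and the DNA methylation list (1.21) was 1.11. The share with a Pou5f1 UMI (74.8%) was 43.0% after thinning.

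With 200 members, 800 members, the 6 genes alone and the thinned score, in that order, neighbours that are members (18.4%) were 12.8, 24.5, 20.02 and 12.4% in RNA and, in accessibility (15.7%), 9.63, 21.5, 17.9 and 11.75%. Within the clusters and in the same order, the S phase list (1.32) was 1.36, 1.27, 1.28 and 1.20, the G2 and M phase list (0.761) 0.729, 0.808, 0.741 and 0.859, and the summed genes of 400 kb or more (0.716) 0.676, 0.775, 0.787 and 0.822. Matched on totals these 3 were 1.21, 0.830 and 0.787. Against the lowest scores there the S phase list was 1.49 and the long genes 0.643, and the long genes were 0.709 without doublet calls. These 3 kept their side of 1 under each of their 8 alternatives.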

Other observations

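RNA of 67 histone genes, which are made in S phase but mostly lack the poly(A) tail that the capture uses, was lower in the members where the S phase list was higher. It summed to 1130 against 1456 CPM (counts per 1000000 RNA UMIs) within the shared clusters (0.776, 0.750 to 0.803) and to 1127 against 1249 in the Pou5f1 comparison (0.902, 0.874 to 0.931).

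The X-inactivation transcript Xist was lower too, at 731 against 1173 CPM within the shared clusters (0.62, 0.60 to 0.65; 0.67 against barcodes matched on total counts). The share of barcodes with 3 or more Xist UMIs was 30.6% in those members and 33.4% in the others, and barcodes with a UMI of a Y-linked gene made up 70.3% and 71.6%. Y-linked genes summed to 488 against 528 CPM.

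Genes of the FGF, Nodal, BMP and Wnt signals were level as a list within the shared clusters, at 1.0 (0.980 to 1.03), with 0 of 16 tested genes past 1.5-fold in either direction, where 1.06% of all tested genes were higher and 2.56% lower; a count of 0 of 16 is near that share.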
